A study of Mus musculus with 6 samples.

Results

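Indian hedgehog and parathyroid hormone-related protein (PTHrP) form the signaling loop that sets how fast cartilage cells mature, and 9 genes of that loop were followed here in cartilage that the sample labels place in the mouse knee. They are the ligand genes *Ihh* and *Pthlh* (which encodes PTHrP), the receptor genes *Ptch1*, *Smo* and *Pth1r*, the transcription factor genes *Gli1*, *Gli2* and *Gli3*, and *Hhip*, which encodes a hedgehog-binding inhibitor. Each was taken as the row of the deposited matrix whose Ensembl identifier carries that symbol, and all 9 were found among 22032 genes. RNA-seq had been run on 3 samples of chondrocytes from embryos at E16.5 and 3 from male B6 mice aged 2 months, none of them treated or carrying an engineered allele according to the sources used here. The sample labels give the embryonic stage as 16.5 weeks, and the embryonic day given by the study is used. The adult cells had been sorted as negative for CD31, CD45, Ter119 and alkaline phosphatase (ALP) and positive for BMPR1B, a bone morphogenetic protein receptor, and the study describes a lineage-negative, ALP-negative and BMPR1B-positive sort for the mouse cells as a whole. The ALP gate bears on this loop, because late hypertrophic cartilage cells carry that enzyme. How far the gate removed such cells was not tested, and transcripts of hypertrophy genes in the sorted cells are given below. The number of animals in each sample and the sex of the embryos are not given in the sources used here.

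In growing cartilage, *Ihh* is made by cells that are about to enlarge (prehypertrophic chondrocytes). It binds Patched 1 on neighbouring cells, which frees Smoothened to act in the primary cilium, and the GLI proteins then carry the signal to the nucleus. Without the signal, GLI3 and part of GLI2 are cut into repressors, whereas *Gli1* is itself switched on by the pathway and acts only as an activator. *Ptch1* and *Hhip* are also direct targets and restrain the signal. Hedgehog signaling in turn maintains *Pthlh* near the joint surface, and PTHrP acts through its receptor PTH1R, the stimulatory G protein and cyclic AMP to delay hypertrophy.

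The promoters of 3 of the genes that were lower in the adult samples are shown, and their part in that difference was not tested. Each is the 300 bases from 250 before to 50 after a transcription start in RefSeq on GRCm38.p6. All are read 5′ to 3′ on the gene's own strand. *Ptch1* (chr13:63565686-63565985, minus strand) and *Hhip* (chr8:80057959-80058258, minus strand) encode the feedback inhibitors of the pathway, and *Gli3* (chr13:15463473-15463772, plus strand) its main repressor. Capitals mark a match to TGACGTCA, the cyclic AMP response element (CRE), or to the RUNX letters TGTGGT or their reverse complement ACCACA.
Ptch1: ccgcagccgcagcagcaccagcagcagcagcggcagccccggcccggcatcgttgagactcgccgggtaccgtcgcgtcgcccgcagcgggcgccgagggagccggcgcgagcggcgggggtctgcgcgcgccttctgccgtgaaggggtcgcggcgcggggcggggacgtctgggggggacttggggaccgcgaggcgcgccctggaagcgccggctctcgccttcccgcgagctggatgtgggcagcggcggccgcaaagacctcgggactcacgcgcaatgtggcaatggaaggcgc
Hhip: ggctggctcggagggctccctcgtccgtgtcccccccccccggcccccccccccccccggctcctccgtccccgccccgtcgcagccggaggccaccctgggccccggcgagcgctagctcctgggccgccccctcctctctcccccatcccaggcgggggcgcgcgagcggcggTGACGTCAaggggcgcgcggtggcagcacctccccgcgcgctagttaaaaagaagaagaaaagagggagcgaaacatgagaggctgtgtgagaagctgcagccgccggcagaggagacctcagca
Gli3: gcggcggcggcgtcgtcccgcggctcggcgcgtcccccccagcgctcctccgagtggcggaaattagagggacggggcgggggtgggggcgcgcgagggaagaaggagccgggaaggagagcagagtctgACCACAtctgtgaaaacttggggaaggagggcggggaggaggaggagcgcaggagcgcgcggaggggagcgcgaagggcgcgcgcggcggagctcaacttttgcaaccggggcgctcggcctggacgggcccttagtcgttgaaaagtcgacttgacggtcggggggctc
The windows hold 76.3%, 73.7% and 71.0% G and C in that order, where the median of all 32851 promoters of the table is 52.7%. The 9-letter GLI site GACCACCCA was searched on both strands in the promoters of the 8 members the table holds (*Gli1* is not among them), as was its inner part CCACCCA, and neither was found in any of these windows. Of all promoters, 0.253% hold the longer and 9.30% the shorter form. The CRE was found in *Hhip* only, 75 bases before the start, and is held by 1.79% of all promoters. The RUNX letters were found in *Gli3* only, 120 bases before the start, and are held by 16.8% of all promoters. *Ptch1* has further starts that this window does not cover, as its gene in GENCODE M21 runs on to position 63573598, and no match says only that these letters are absent from these windows.

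Values are RSEM estimates in transcripts per 1000000 (TPM), a measure per transcript length with a common total for all samples. Read numbers cannot be recovered from it, so errors are the SD over the 3 samples of each stage and no counting error is given. Stages were compared with limma on log2(TPM + 1) over the 13125 genes whose mean reached 1 TPM, with p-values adjusted over all of them by the Benjamini-Hochberg method and a threshold of 0.05. A log2 fold change on this scale, always adult minus embryonic, understates the change of low genes. The median of all tested genes was 0.16 and moved to 0.03 with median-of-ratios scaling and to 0.25 when the 20 highest genes were left out, so small changes are read against that shift. The samples are bulk RNA, in which fewer cells of a type and less RNA per cell cannot be told apart.

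Cartilage genes were abundant at both stages. The 6 markers *Sox9*, *Acan*, *Col2a1*, *Col9a1*, *Hapln1* and *Matn3* summed to 18264 to 19722 TPM in the embryonic and 6679 to 9348 TPM in the adult samples. *Sox9*, *Acan* and *Col2a1* were at 392 TPM or more in every sample, whereas *Col9a1* was at 64.3 TPM and *Matn3* at 3.65 TPM at most in the adult samples. The 4 articular surface markers summed to 261 to 325 TPM in the embryonic and 27932 to 31947 TPM in the adult cells, in the latter nearly all of it *Prg4* (lubricin) and *Cilp*, whereas *Gdf5* was at 25.2 to 26.9 TPM in the embryonic and 1.39 to 5.11 TPM in the adult cells and *Erg* at 58.9 to 75.5 and 21.3 to 23.8 TPM. Markers of other cell types differed between the stages, but not in one direction within a list. The 5 osteoblast markers summed to 4908 to 5989 TPM in the embryonic and 514 to 1033 TPM in the adult cells, a difference made by *Col1a1*. Of its other genes, *Bglap* and *Ibsp* went the other way, *Bglap* from 0 in all embryonic samples to 15.8 to 83.9 TPM and *Ibsp* from 0.148 to 29.6 TPM to 235 to 316 TPM. *Dmp1* was lower in the adult cells (10.1 to 16.3 TPM against 0.0611 to 3.51 TPM). *Sp7* was at 3.26 TPM or less in every sample, and its stages overlapped. The 5 perichondrium and fibroblast markers summed to 3184 to 4033 TPM against 5823 to 6937 TPM, a difference made by *Dcn* (217 to 326 TPM against 5026 to 6348 TPM), while *Col1a2* was lower in the adult cells (2710 to 3404 TPM against 357 to 675 TPM), as was *Twist2*, and *Thy1* and *Pdgfra* overlapped. The 4 leukocyte markers stood at 41.8 TPM in adult replicate 1, with *Lyz2* at 30.7 TPM, and at 0.0613 to 9.16 TPM elsewhere, while muscle and endothelial markers reached at most 11.4 and 14.3 TPM. The 4 erythroid markers summed to 104 TPM in embryonic replicate 1 and to 33.8 TPM or less elsewhere, and of the 3 skin markers *Krt5* and *Krt14* were at 0 in all samples. The part of these cells in the results below was not tested.

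Between the stages, 6 of the 8 tested members were lower in the adult samples, and 0 were higher. In these 6 the stages did not overlap, with every adult sample the lower. The same held for *Ihh*, which the main analysis did not test and which was at 0 in all adult samples. Over all tested genes the stages did not overlap in 56.5%, and in 25.9% every adult sample was the lower. By the test, 21.4% of these genes were called lower, 23.9% higher and 45.3% in either direction. The balance turned with the scaling, with 2613 genes higher and 3238 lower under median-of-ratios scaling, 2792 and 2830 under quantile normalization, and 3498 and 2518 without the 20 highest genes. The 6 were *Gli1*, *Pthlh*, *Gli3*, *Ptch1*, *Hhip* and *Pth1r*, with *Gli1* changed most. *Smo* and *Gli2* did not pass the test, and *Ihh* had a mean under 1 TPM and was tested only in the setting without a filter. The median log2 fold change of the 8 was -1.12. All 8 had an adult mean above 1 TPM, so none passed the expression filter through the embryonic samples alone. With 1 sample left out at a time, between 4 and 6 members stayed below the threshold, the 4 without embryonic replicate 3.

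**Figure D1:**
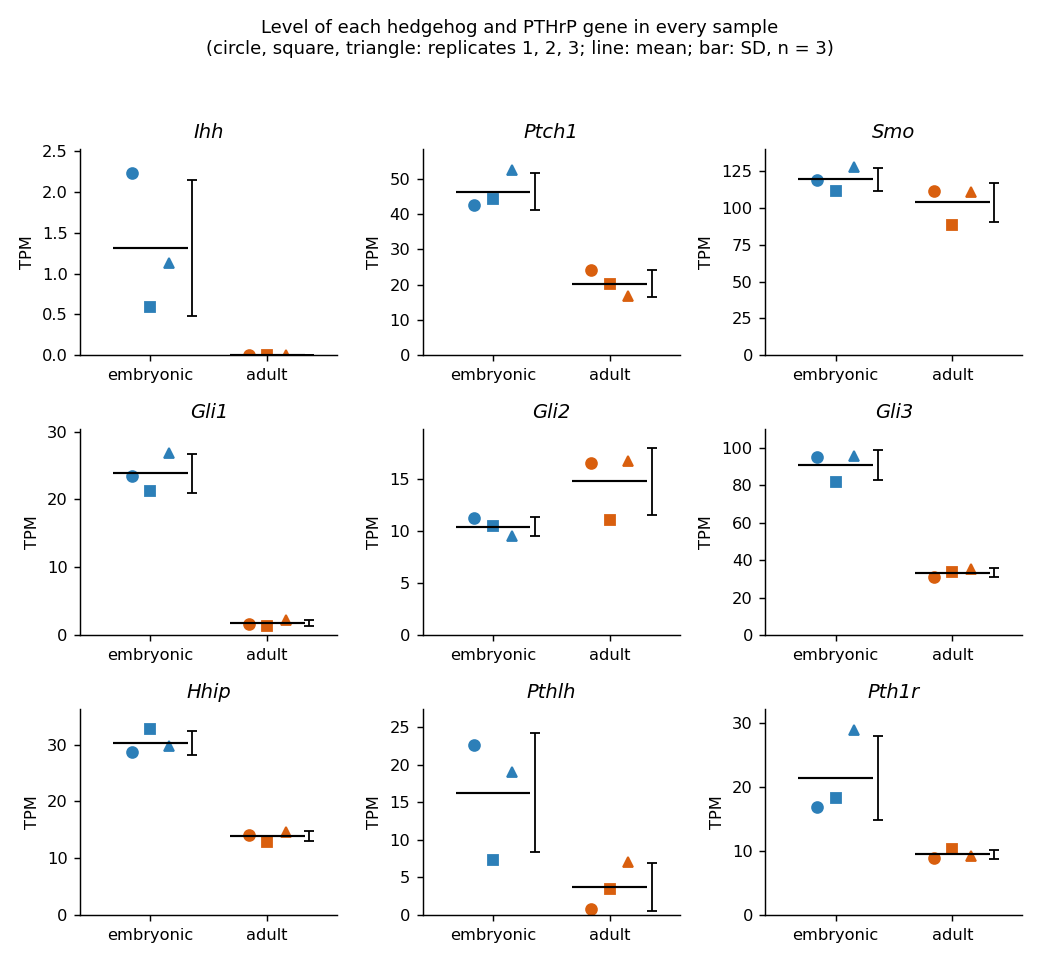
TPM of the 9 genes (vertical axes, each from 0) in the 3 embryonic and 3 adult samples; symbols are replicates, horizontal lines means and bars the SD (n = 3). The stages do not overlap for *Ihh*, *Ptch1*, *Gli1*, *Gli3*, *Hhip*, *Pthlh* and *Pth1r*, and they overlap for *Smo* and *Gli2*.

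**Figure D2:**
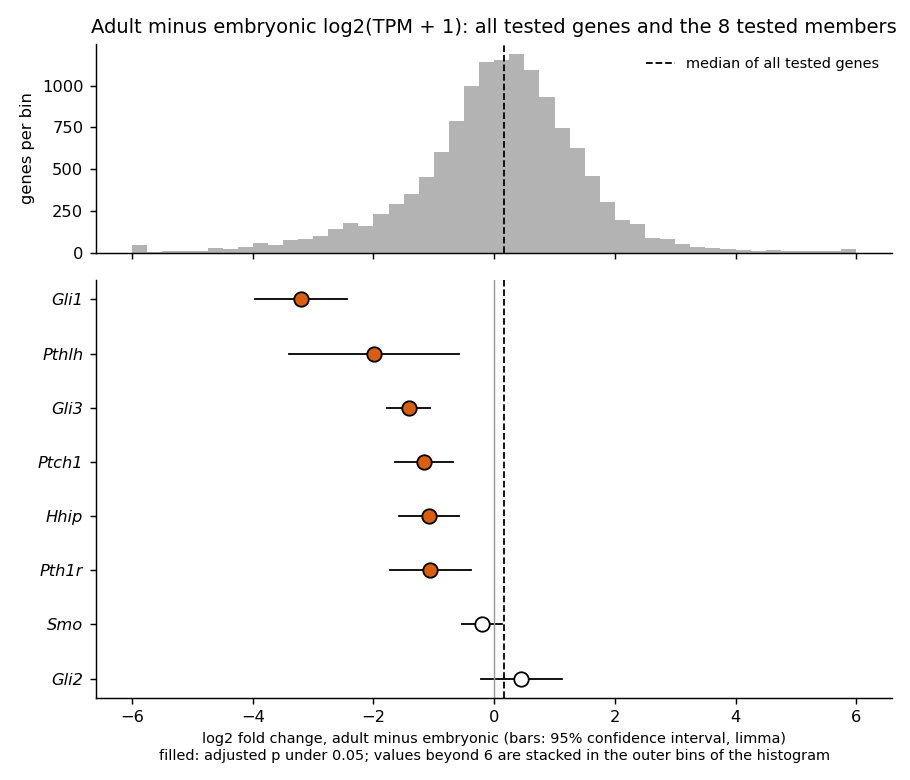
Log2 fold change, adult minus embryonic, of all 13125 tested genes (histogram, top) and of the 8 tested members with 95% confidence intervals (bottom); the dashed line is the median of all genes, 0.16. The intervals of *Gli1*, *Pthlh*, *Gli3*, *Ptch1*, *Hhip* and *Pth1r* lie below 0, and those of *Smo* and *Gli2* include it.

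The hedgehog ligand itself was scarce. *Ihh* (ENSMUSG00000006538), on chromosome 1 from 74945315 to 74951672 of GRCm38, was listed at 2.23, 0.597 and 1.13 TPM in embryonic replicates 1 to 3 and at 0 in all 3 adult samples. All embryonic values thus lay above the adult ones, although near the lower end of the matrix, and the embryonic mean exceeded those of only 8.54% of tested genes. A gene at 0 in one stage is given no fold. The other hedgehog ligand genes were also low, with *Shh* at 0 in every sample and *Dhh* at 1.67 TPM at most.

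The receptor gene *Ptch1* (ENSMUSG00000021466), whose product holds the pathway off until ligand binds, lies on chromosome 13 from 63508328 to 63573598. Its level was 42.4, 44.2 and 52.3 TPM in the embryonic cells and 24.1, 20.1 and 16.7 TPM in the adult cells. Every adult sample was below every embryonic one, and the mean fell 2.28-fold from 46.3 ± 5.25 to 20.3 ± 3.71 TPM (SD, n = 3; log2 fold change -1.16 with a standard error of 0.214, limma adjusted p = 0.00257).

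*Smo* (ENSMUSG00000001761), whose product relays the signal once Patched 1 is bound, was the most abundant member at both stages. It lies on chromosome 6 from 29735503 to 29761365 and stood at 119, 112 and 128 TPM in the embryonic and 112, 88.9 and 111 TPM in the adult cells. Embryonic replicate 2 and adult replicate 1 met at 112 TPM, so the stages overlapped. The log2 fold change of -0.21 had a 95% interval of -0.54 to 0.12 and an adjusted p of 0.275 by limma, an interval whose lower end does not reach the estimate for *Ptch1*. Relative to the median of all genes it was -0.36, and over the other scalings the adjusted p reached as low as 0.0736.

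*Gli1* (ENSMUSG00000025407), the activator that the pathway induces, showed the steepest fall. It lies on chromosome 10 from 127329882 to 127341974 and was at 23.4, 21.2 and 26.9 TPM in the embryonic cells, against 1.70, 1.28 and 2.18 TPM in the adult cells. The means differed 13.8-fold (log2 fold change -3.20 with a standard error of 0.337, limma adjusted p = 0.000131), a gap many times the spread in either stage. Of the 50-base stretches of its longest coding transcript, 5.76% also occur in transcripts of other genes, and 327 bases of its exons overlap *Arhgap9* and *Gm47200* on the opposite strand. *Arhgap9* was at 1.04 TPM or less in every sample, and no value was found for *Gm47200*. Exons of *Gli3* and *Hhip* also overlap a gene on the opposite strand, *Gm6556* over 188 bases and *Gm27820* over 175 bases. No value was found for these genes either.

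*Gli2* (ENSMUSG00000048402), which can act as activator or, after processing, as repressor, went the other way without passing the test. It lies on chromosome 1 from 118834132 to 119053619. Its level was 11.3, 10.5 and 9.48 TPM in the embryonic and 16.5, 11.1 and 16.7 TPM in the adult cells. Adult replicate 2 fell within the embryonic range and the other adult samples above it (log2 fold change 0.45, 95% interval -0.21 to 1.12, limma adjusted p = 0.235). Its direction was upward under all 3 other scalings and with each sample left out.

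*Gli3* (ENSMUSG00000021318), the main repressor of the pathway, lies on chromosome 13 from 15463235 to 15730026. It was at 95.2, 81.8 and 95.4 TPM in the embryonic cells, against 30.9, 33.5 and 35.5 TPM in the adult cells. The stages were far apart, with a 2.72-fold fall in the mean (log2 fold change -1.42 with a standard error of 0.158, limma adjusted p = 0.000173).

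The 3 *Gli* genes therefore changed in their mix as well as in their sum, which was 113 to 132 TPM in the embryonic and 46.0 to 54.4 TPM in the adult cells. *Gli1* made up 18.0%, 18.7% and 20.4% of the summed TPM in the embryos, and 3.45%, 2.79% and 4.01% in the adults. *Gli2* made up 7.19% to 9.22% in the embryonic and 24.3% to 33.6% in the adult samples. *Gli3* remained the largest component throughout, at 72.1% to 73.3% and 62.9% to 73.0%, and its shares overlapped between the stages. These shares do not depend on how a sample is scaled, and they were computed after the levels had been seen.

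**Figure D3:**
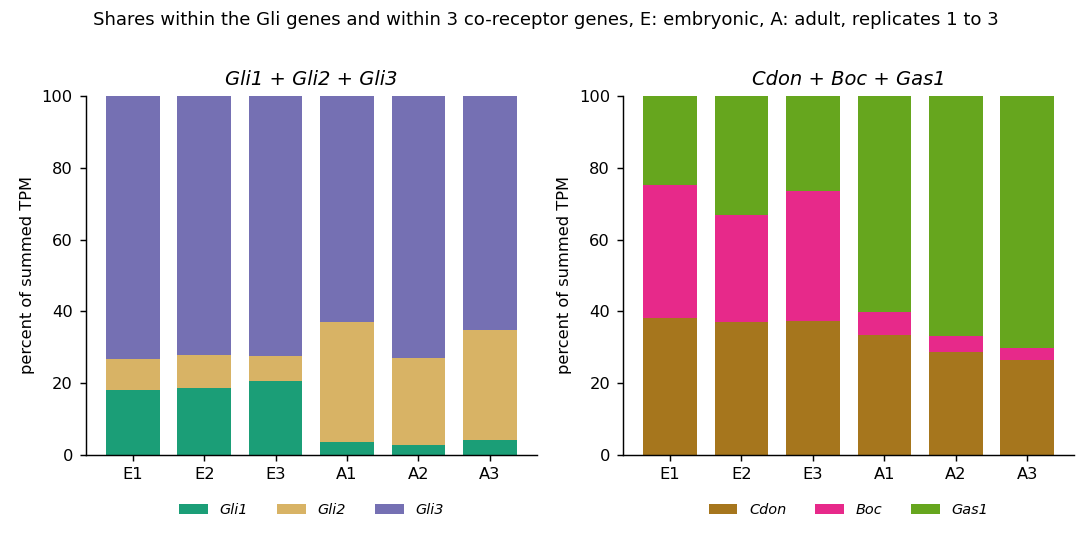
Share of each gene in the summed TPM of the 3 *Gli* genes (left) and of the 3 co-receptor genes *Cdon*, *Boc* and *Gas1* (right), in percent, for embryonic (E) and adult (A) replicates 1 to 3. *Gli1* shrinks from 18.0% or more to 4.01% or less, and *Gas1* grows from at most 33.1% to at least 60.2%.

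Pairs of members were also compared within each sample, which largely removes the scaling. The log2 ratio of (TPM + 1) of *Gli1* to *Gli3* was -1.98, -1.90 and -1.79 in embryos and -3.57, -3.92 and -3.52 in adults, a difference of -1.78. That of *Ptch1* to *Smo* was -1.46, -1.32 and -1.28 against -2.17, -2.09 and -2.66, a difference of -0.95. Neither ratio overlapped between the stages, and each had p = 0.1 in an exact two-sided permutation test, the smallest that 3 against 3 samples can give (0.2 adjusted over the 4 ratios tested). The test cannot reach 0.05 in this design.

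*Hhip* (ENSMUSG00000064325), whose product binds hedgehog ligands and keeps them from Patched 1, lies on chromosome 8 from 79965851 to 80058006. It stood at 28.7, 32.7 and 29.7 TPM in the embryonic cells, against 14.1, 12.9 and 14.7 TPM in the adult cells. The samples of each stage lay close together and apart from the other stage, and the mean fell 2.19-fold (log2 fold change -1.08 with a standard error of 0.218, limma adjusted p = 0.00417). *Hhip* and *Ptch1*, both known targets of the pathway, were above 10 TPM in every adult sample, where *Gli1* was at 2.18 TPM or less. The part of pathway activity in these levels was not tested.

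The PTHrP ligand gene varied more between samples. *Pthlh* (ENSMUSG00000048776), on chromosome 6 from 147252101 to 147264183, was at 22.6, 7.35 and 19.0 TPM in the embryonic cells, against 0.747, 3.43 and 7.08 TPM in the adult cells. The stages did not overlap, but embryonic replicate 2 and adult replicate 3 lay next to each other, and the adult values spread more widely in relative terms than those of any other tested member. The fall in the mean was 4.35-fold (log2 fold change -1.99 with a standard error of 0.624, limma adjusted p = 0.0291). The call was lost when any of 4 samples was left out. The adjusted p was 0.114 without embryonic replicate 1 (log2 fold change -1.70), 0.103 without embryonic replicate 3 (-1.82), 0.0814 without adult replicate 1 (-1.40) and 0.0589 without adult replicate 2 (-2.07). Adult replicate 1, the lowest in *Pthlh*, was also the sample with 41.8 TPM of leukocyte markers, and their part in this value was not tested.

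*Pth1r* (ENSMUSG00000032492), the receptor for PTHrP, lies on chromosome 9 from 110722085 to 110747145. Its level was 16.9, 18.3 and 28.8 TPM in the embryonic cells and 8.91, 10.3 and 9.18 TPM in the adult cells. The adult samples were close together and all below the embryonic ones, among which replicate 3 stood highest (2.26-fold fall in the mean, log2 fold change -1.06 with a standard error of 0.296, limma adjusted p = 0.0182). Without embryonic replicate 3 the log2 fold change was -0.83 and the adjusted p 0.0826. On the opposite strand, 95 bases of its exons overlap *Myl3*, which was at 6.62 TPM at most. The log2 ratio of *Pth1r* to *Pthlh* ran from -0.40 to 1.21 in the embryonic and from 0.33 to 2.50 in the adult samples, which overlap (exact two-sided permutation p = 0.4, adjusted 0.4). That of *Ihh* to *Pthlh* also overlapped (exact two-sided permutation p = 0.3, adjusted 0.4), and its direction turned with the pseudocount.

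Ordered by mean level, the embryonic samples ran *Smo* (120 ± 8.42 TPM, SD, n = 3), *Gli3* (90.8 ± 7.77), *Ptch1* (46.3 ± 5.25), *Hhip* (30.4 ± 2.12), *Gli1* (23.8 ± 2.91), *Pth1r* (21.3 ± 6.53), *Pthlh* (16.3 ± 7.97), *Gli2* (10.4 ± 0.895) and *Ihh* (1.32 ± 0.834). The ranges of *Gli1* and *Pth1r*, of *Pth1r* and *Pthlh*, and of *Pthlh* and *Gli2* overlapped, so these neighbours cannot be ranked. The adult order was *Smo* (104 ± 13.0), *Gli3* (33.3 ± 2.29), *Ptch1* (20.3 ± 3.71), *Gli2* (14.8 ± 3.16), *Hhip* (13.9 ± 0.909), *Pth1r* (9.46 ± 0.730), *Pthlh* (3.75 ± 3.18), *Gli1* (1.72 ± 0.449) and *Ihh* (0). Here the ranges of *Ptch1* and *Gli2*, *Gli2* and *Hhip*, and *Pthlh* and *Gli1* overlapped. Against all tested genes, the mean of *Smo* exceeded 87.4% in the embryonic and 86.3% in the adult samples, and that of *Gli1* 55.3% and 11.5%.

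Genes listed for hedgehog ligand, its release and its binding moved in both directions. Of 12 listed, 9 were tested. In the adult samples 3 were higher and 4 lower, where 45.3% of all tested genes were called, and their median log2 fold change of -0.46 compares with 0.16 over all genes. The co-receptor genes *Gas1* and *Cdon* rose. *Gas1* was at 78.8, 108 and 74.0 TPM in the embryonic and 333, 503 and 477 TPM in the adult cells (log2 fold change 2.32, limma adjusted p = 4.64e-05). *Cdon* was at 121, 120 and 105 TPM against 184, 217 and 179 TPM (log2 fold change 0.74, limma adjusted p = 0.00255). *Boc*, the remaining co-receptor of that trio, fell from 118, 97.5 and 102 TPM to 35.2, 34.0 and 23.4 TPM (log2 fold change -1.76, limma adjusted p = 0.000179). Among these 3, *Gas1* held 24.8% to 33.1% of their summed TPM in the embryonic and 60.2% to 70.2% in the adult samples, and *Boc* 29.9% to 37.1% and 3.45% to 6.37%. The receptor *Ptch1* and its co-receptors did not move in one direction.

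The *Scube* genes encode secreted proteins that carry lipid-modified hedgehog off the producing cell. *Scube1* rose from 14.3, 9.45 and 9.30 TPM to 60.6, 63.9 and 61.6 TPM (log2 fold change 2.41, limma adjusted p = 7.59e-05). *Scube3* fell from 70.7, 47.6 and 52.5 TPM to 3.98, 4.39 and 6.10 TPM (log2 fold change -3.31, limma adjusted p = 3.77e-05). *Scube2* fell as well, from 18.9, 1.42 and 7.76 TPM to 0, 0.599 and 1.35 TPM (log2 fold change -2.27, limma adjusted p = 0.0371). Leaving out embryonic replicate 1 or 3 or adult replicate 1 or 2 ended that call, at an adjusted p of 0.133, 0.107, 0.113 and 0.0789, with a log2 fold change of -1.57 without embryonic replicate 1. Its adult mean was 0.649 TPM, so it passed the expression filter only through the embryonic samples and could only be called lower. *Gpc3*, encoding a cell-surface glypican that binds hedgehog and competes with Patched 1, had the largest change of the list, from 878, 774 and 902 TPM to 2.81, 1.13 and 3.81 TPM (log2 fold change -7.97, limma adjusted p = 3.85e-07).

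The genes of the intracellular machinery were called about as often as genes at large. Of 16 hedgehog transduction genes, *Efcab7* was not matched, and of the 15 tested 4 were higher and 2 lower, where 45.3% of all genes were called, and the median log2 fold change was -0.01. *Spop*, part of a ubiquitin ligase for GLI2 and GLI3, rose from 41.1, 45.3 and 48.0 TPM to 96.0, 102 and 112 TPM (log2 fold change 1.19, limma adjusted p = 0.000338). *Tulp3*, which brings receptors into the cilium, rose by 1.09 on the log2 scale (limma adjusted p = 0.00555). *Evc2*, whose product binds Smoothened at the base of the cilium, and *Iqce*, which anchors it there, rose by 0.86 and 0.92 (limma adjusted p = 0.00413 and 0.0231). *Iqce* did not pass without embryonic replicate 2 (adjusted p 0.0738) or adult replicate 3 (0.0653). The kinase gene *Csnk1a1* fell by 0.95 (limma adjusted p = 0.000446). *Prkaca*, a catalytic subunit of protein kinase A, was lower by a log2 fold change of -0.60 with an adjusted p of 0.0319, which lay between 0.0560 and 0.111 without the 20 highest genes and without embryonic replicate 1, 2 or 3 or adult replicate 2 or 3. *Sufu*, the cytoplasmic inhibitor of the GLI proteins, was at 34.4 to 41.2 TPM and 28.4 to 41.0 TPM (log2 fold change -0.20, limma adjusted p = 0.457).

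Further genes known as hedgehog targets in other tissues fell where they were called. Of 12 listed, 9 were tested, with 6 lower and 0 higher, where 21.4% of all genes were lower and 23.9% higher, and the median log2 fold change was -1.55 against 0.16 over all genes. Of the 6, *Mycn* and *Nkx3-2* had adult means of 0 and 0.554 TPM, passed the expression filter only through the embryonic samples and could only be called lower, so the count and the median lean that way. *Ccnd1*, a cyclin gene, went from 78.7, 60.3 and 73.1 TPM to 8.69, 4.49 and 3.51 TPM (log2 fold change -3.52, limma adjusted p = 5.84e-05). *Bmp4*, encoding a bone morphogenetic protein, went from 148, 131 and 121 TPM to 15.7, 17.4 and 15.3 TPM (log2 fold change -2.97, limma adjusted p = 4.23e-06). *Mycn*, encoding a MYC-family transcription factor, was at 5.70, 5.45 and 11.1 TPM in the embryonic cells and listed at 0 in all adult samples. The other 3 were the cyclin gene *Ccnd2*, the homeobox gene *Nkx3-2* and the ligand gene *Wnt5a* (log2 fold change -0.75, -2.07 and -1.55), and the stages overlapped in *Wnt5a*. *Nkx3-2* lost its call without embryonic replicate 1 (adjusted p 0.0560) or 3 (0.0595), and *Wnt5a*, at an adjusted p of 0.0488, without embryonic replicate 1 (0.153) or 3 (0.157) or adult replicate 1 (0.106) or 2 (0.139), which left 4 calls in the list without embryonic replicate 1 or 3. The forkhead genes *Foxf1*, *Foxf2* and *Foxc2* did not pass the test, with log2 fold changes of 0.38, 0.65 and 0.37.

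Around PTHrP signaling, 20 of 22 listed genes were tested (*Pth* and *Pth2r* were too low), of which 5 were higher and 4 lower, and the median log2 fold change was -0.17. These calls are close to the share found over all genes, 45.3%. *Gnas*, whose locus encodes the stimulatory G protein that PTH1R uses, fell from 3385, 2797 and 3044 TPM to 794, 832 and 811 TPM (log2 fold change -1.92, limma adjusted p = 7.91e-06). The locus makes several imprinted transcripts that the gene-level value does not separate. *Zfp521*, encoding a zinc finger protein that acts below PTHrP, fell by 1.16 on the log2 scale (limma adjusted p = 0.00319), and *Hdac5*, encoding a histone deacetylase of the class that holds MEF2 in check, by 1.06 (limma adjusted p = 0.000997). *Arrb1*, encoding a beta-arrestin, rose by 1.19 (limma adjusted p = 0.0169), though not past the threshold without embryonic replicate 1 (adjusted p 0.0632) or adult replicate 3 (0.0521). *Sik2*, a salt-inducible kinase gene, rose by 1.04 (limma adjusted p = 0.00358) and *Creb1*, encoding a cyclic AMP response factor, by 0.84 (limma adjusted p = 0.0109). *Gna11*, encoding another G protein subunit, and *Mef2d*, encoding a MEF2 factor, rose by 0.81 and 0.52 (limma adjusted p = 0.00513 and 0.00583), and *Prkaca* completes the 4 lower genes. *Hdac4* and *Mef2c*, the deacetylase and the transcription factor through which PTHrP is known to delay hypertrophy, did not pass the test (log2 fold change -0.23 and 0.09, limma adjusted p = 0.387 and 0.817), and the sign of *Mef2c* turned under median-of-ratios scaling.

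Genes of hypertrophy and its regulators, the step that PTHrP delays, were mostly higher in the adult samples. Of 13 tested, 8 were higher and 2 lower, where 23.9% of all genes were higher and 21.4% lower, and the median log2 fold change was 1.59 against 0.16 over all genes. *Col10a1*, the collagen gene of hypertrophic cartilage, rose from 14.5, 72.4 and 11.4 TPM to 814, 949 and 1096 TPM (log2 fold change 5.29, limma adjusted p = 0.000137). *Mmp13*, a collagenase gene, rose from 4.90, 7.80 and 14.4 TPM to 143, 179 and 226 TPM (log2 fold change 4.28, limma adjusted p = 2.87e-05). *Ibsp*, encoding bone sialoprotein, rose from 0.148, 29.6 and 5.07 TPM to 316, 235 and 308 TPM (log2 fold change 5.58, limma adjusted p = 0.00164). *Ibsp* is also on the osteoblast list. *Alpl*, the gene of the ALP that the sort selects against, was at 15.4, 14.4 and 17.9 TPM against 38.6, 32.7 and 36.0 TPM (log2 fold change 1.13, limma adjusted p = 0.00292). The exceptions were *Vegfa*, encoding a vascular growth factor, which fell by 2.09 (limma adjusted p = 3.82e-05), and *Panx3*, encoding a channel protein of prehypertrophic cells, which fell from 6.07, 3.37 and 7.38 TPM to 0, 0.569 and 0 TPM (log2 fold change -2.46, limma adjusted p = 0.00360). *Panx3* had an adult mean of 0.190 TPM, passed the expression filter only through the embryonic samples and could only be called lower. *Runx2* and *Runx3*, regulators of *Ihh*, were not called (log2 fold change -0.72 and -0.87, limma adjusted p = 0.0659 and 0.0847). *Runx2* passed under quantile normalization (0.0289), with median-of-ratios scaling (0.0327) and without adult replicate 3 (0.0390), and *Runx3* under quantile normalization (0.0434). The adult samples thus held *Col10a1* transcripts with no listed *Ihh*.

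**Figure D4:**
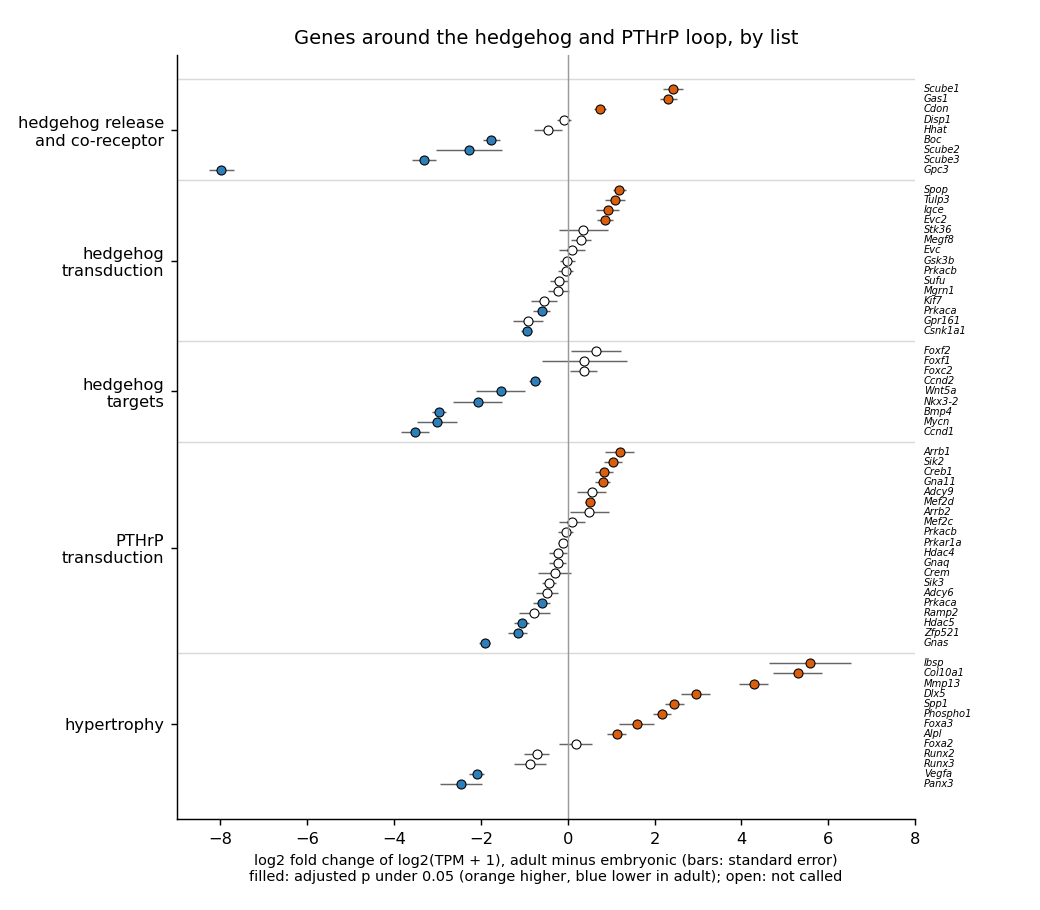
Log2 fold change, adult minus embryonic, of each tested gene in the 5 lists around the loop, with standard errors; orange and blue points passed the test higher and lower in the adult samples, open points did not. The called hedgehog targets lie to the left, hypertrophy genes mostly to the right, and both transduction lists on either side of 0.

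The fold changes of the members were compared across 16 alternative settings. *Gli1* lay between -3.74 and -3.08, *Gli3* between -1.56 and -1.33, *Ptch1* between -1.30 and -1.03 and *Hhip* between -1.23 and -0.99, and the calls of these 4 genes held in all of them, including the threshold of 0.01.

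**Figure D5:**
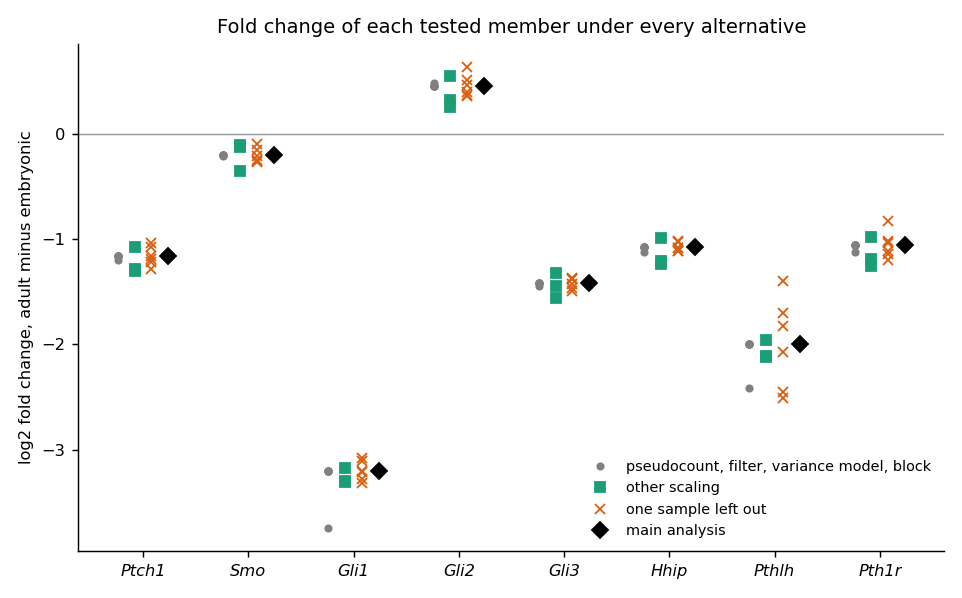
Log2 fold change, adult minus embryonic (vertical axis), of the 8 tested members in the main analysis (diamonds) and under the alternatives by kind. No member changes sign, which the filters, variance models, block and threshold could not bring about, and *Pthlh* spreads most, from -2.51 to -1.40.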

How the data were processed

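The deposited values are log2(TPM + 1) from RSEM. The study names GRCm38 with RefSeq annotations, whereas the rows of the deposited matrix carry Ensembl identifiers. The RSEM version, any gene filter and the strand setting are not given in the sources used here. RNA was amplified from random and poly(T) primers before library construction. Values taken back to TPM summed to 1000000 in every column. The precision rests on 3 samples per stage, which the series describes as biological replicates.

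Symbols came from GENCODE M21 of GRCm38, which named 21902 identifiers and left 130 without a symbol. Stages were compared with limma 3.58.1 in R 4.3.3 (eBayes with trend) on log2(TPM + 1), with 1 as pseudocount, where the mean over all samples reached 1 TPM. The study's tool for pairwise comparisons, EBSeq, needs counts and was not used here. The fit was tested on simulated data. Ratios were compared by exact permutation with SciPy 1.17.1. Promoters are RefSeq's. The members, the lists and the tests were chosen with earlier results of these data known. Genes named are all members, up to 3 in each direction with the largest called change per list, and those a small count refers to. *Sufu*, *Hdac4*, *Mef2c*, *Runx2*, *Runx3* and *Alpl* were picked once their values were known. Alternatives were another pseudocount, 2 filters, 3 scalings, 2 variance models, a replicate block, a threshold of 0.01 and each sample left out.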

Additional observations from a re-analysis of the deposited data

How the results depend on the processing

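Of 128 alternative values for the 8 tested members, 119 kept their direction and their side of the threshold and 9 lost the call, all of them for *Pthlh* or *Pth1r*. Beyond the samples named above, *Pthlh* lost it with no filter (adjusted p = 0.0613 by limma) and in eBayes without trend (0.0513), and at a threshold of 0.01 both genes lost it. The filters, variance models, block and threshold leave a fold change as it is. A direction could turn only with the pseudocount, the scaling or a sample left out. In the 6 tested members whose stages did not overlap, leaving out a sample could not turn the direction either. With no filter *Ihh* was tested too, over 16947 genes, and was called lower (adjusted p = 0.0215 by limma). Being at 0 in all adult samples, it could only be called lower. The count over the members stayed at 6 there, with *Ihh* in and *Pthlh* out. The count over all genes fell from 5949 to 3718 at a threshold of 0.01, and to between 4603 and 5550 with a sample left out. Counts in the 5 lists stayed within 1.5 times the main count. The log2 ratio of *Ihh* to *Pthlh* differed by 0.84 between the stages with a pseudocount of 1 and by -1.25 with a pseudocount of 0.1, since *Ihh* is at 0 in the adult samples.

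The replicate numbers are shared by the stages, but nothing in the labels ties them to a common animal or day. The correlation of same-numbered samples' deviations from their stage mean was -0.009, -0.017 and -0.022, and 0 of the 6 samples correlated best with its own number. With the replicate number as a block, 5430 genes were called, 5286 of them shared with the main analysis, and the count over the members was again 6, while *Prkaca* lost its call (adjusted p = 0.0553 by limma). TPM carries no depth, so a low level such as that of *Ihh* cannot be given a counting limit.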

Other observations

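The genes whose profile over the 6 samples came nearest to that of *Gli1* were *Ppp1r9a*, which encodes an actin-binding scaffold protein, and *Slc14a1*, which encodes a urea transporter. Likeness was measured as the root mean square difference between log2(TPM + 1) values centred on each gene's mean, and was 0.0664 for *Ppp1r9a* and 0.105 for *Slc14a1*. *Ppp1r9a* had levels of 14.4, 13.4 and 16.0 TPM in the embryonic cells and 0.687, 0.563 and 0.883 TPM in the adult samples. Of 13124 genes compared, 41 lay within 0.25 of *Gli1*.

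*Pthlh* had an SD of log2(TPM + 1) of 0.806 in the embryonic and 1.11 in the adult samples, against 0.168 and 0.239 for *Gli1*. The part of this spread in the number of near genes was not tested. Within 0.25 of *Pthlh* lay 1 gene. That gene was *Trp53i11*, a p53-inducible gene, at 42.3, 15.9 and 37.4 TPM in the embryonic and 2.68, 5.76 and 10.9 TPM in the adult samples, a difference of 0.197. The next was *Orc1*, encoding a subunit of the origin recognition complex, at 0.287. *Ihh* was not compared, as it was not among the genes tested in the main analysis.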
